A study of Mus musculus with 6 samples.

Results

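The 10 genes described here, Afp, Ttr, Rbp4, Trf, Apoa1, Apoe, Apom, F2, C2 and Cpn1, encode proteins that the visceral endoderm of the yolk sac and, later, the liver secrete into the blood. They were chosen by symbol: every probe of the deposited value table whose annotated gene is one of the 10 was taken, which gave 10 of 11097 probes, 1 for each gene, among 7774 named genes. Before the liver forms, the visceral endoderm acts for the embryo much as hepatocytes do afterwards, by packing lipid into lipoproteins and releasing carrier proteins, clotting factors and complement. Factors of the HNF, FOXA, GATA and C/EBP families are known to drive many of these genes in both tissues, and Afp is the textbook marker that visceral endoderm and fetal liver share.

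Messenger RNA was measured on 1-colour Illumina mouse bead arrays. All samples came from R1 mouse embryonic stem cells with a GFP reporter construct for Sox17, an endoderm transcription factor, given Activin A with Wnt3A over 6 days and then sorted by that reporter. Unpassaged cells on gelatin form the P0 group, and cells passaged 6 times on mouse mesenchyme 1 or on mouse mesenchyme 2 form the other groups. Passage and mesenchyme changed together, so in every comparison with P0 they cannot be told apart. RNA was taken from cells sorted for GFP in each case. The labels do not name the tissues of the mesenchymes, and no other allele or agent is given. Every group has 2 arrays, which the series calls technical duplicates, so p-values measure the spread between arrays and not between cultures. Array medians lay between 127.6 and 135.5 normalized intensity units.

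As a check of the label, 6 of 10 listed endoderm markers have a named probe. Sox17, the gene behind the sort, stood at 103 and 90.6 in P0, 83.2 and 80.5 on mesenchyme 1, and 722 and 680 on mesenchyme 2, so that only the arrays of mesenchyme 2 lay above their array medians. Foxa2, Cxcr4, Epcam and Cer1 have no named probe in the value table, and the word endoderm follows the labels. Of the other 5 measured, Gata6 rose on both mesenchymes (1.13 ± 0.121 and 3.40 ± 0.121) and Gata4 on mesenchyme 2 (1.90 ± 0.307). Gata4 read low, at 8.26 and 15.8 in P0, 9.34 and 11.6 on mesenchyme 1, and 49.6 and 36.5 on mesenchyme 2. Foxa1 fell on mesenchyme 1 (by 1.32 ± 0.112) and Eomes on mesenchyme 2 (by 1.15 ± 0.109). Cdh1 differed by 0.27 ± 0.103 on mesenchyme 1 and by 0.11 ± 0.103 on mesenchyme 2. Albumin (Alb), the fibrinogen chain Fgb and the antitrypsin gene Serpina1a, all expressed by hepatocytes, have no named probe either. Each array holds RNA of many cells, so fewer cells of a type and less RNA per cell cannot be told apart.

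On mesenchyme 2, 9 of the 10 plasma protein genes were higher than in unpassaged cells, by 1.93 to 4.04 on the log2 scale, and Cpn1 was the exception. On mesenchyme 1 the same genes went different ways: Afp rose, Rbp4 and C2 fell, and Ttr, Apoa1, Apom and Apoe stood lower by less than 2-fold. The median of the 10 differences from P0 was 2.27 on mesenchyme 2 and -0.58 on mesenchyme 1, beside 0.007 and -0.015 over all probes. A gene is said to rise or fall at an adjusted p under 0.05 in the limma fit over all probes together with a change of at least 2-fold. By that rule 9.66% of all probes rose on mesenchyme 2 against P0, while on mesenchyme 1 against P0 3.27% rose and 2.75% fell. The genes were proposed with results of these data known, so the counts describe them and are no test of the group.

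**Figure D1:**
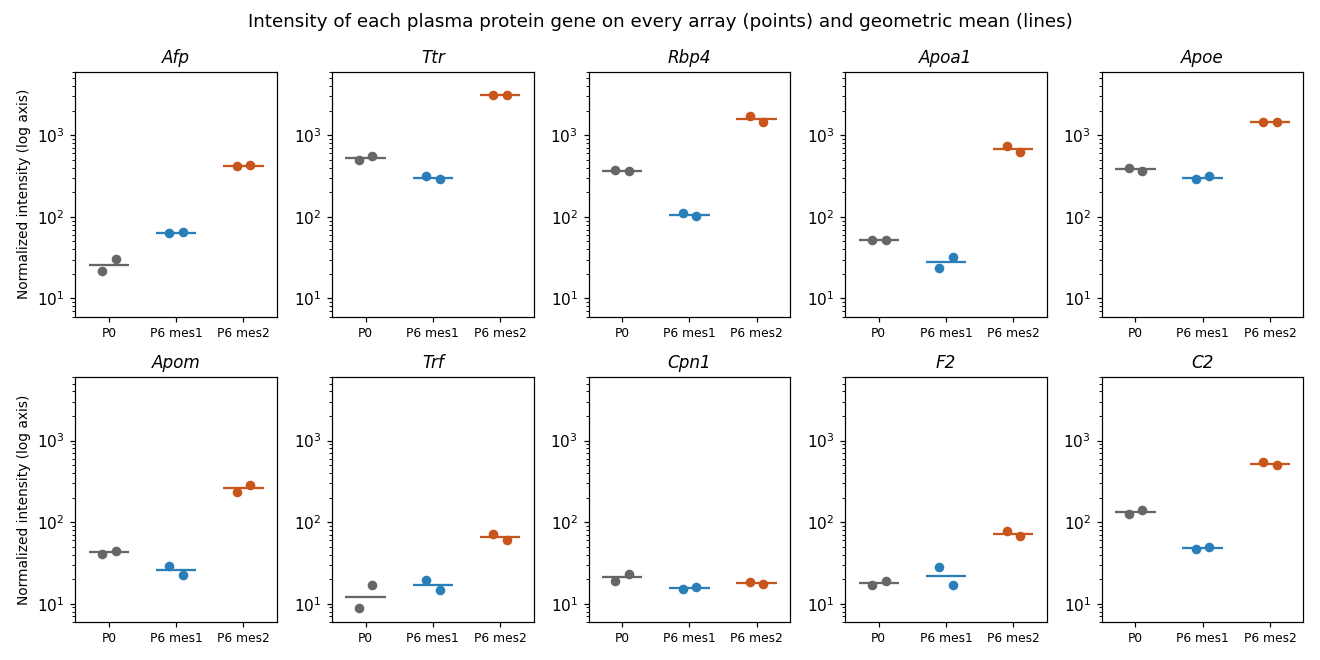
Normalized intensity (log axis) of each plasma protein gene on the 2 arrays of P0, passage 6 on mesenchyme 1 (P6 mes1) and passage 6 on mesenchyme 2 (P6 mes2). Points are arrays and lines are geometric means. The points of mesenchyme 2 lie above the others in every panel except that of Cpn1, and those of mesenchyme 1 lie below P0 for Ttr, Rbp4, Apoa1, Apoe, Apom, Cpn1 and C2.

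The small-molecule and metal carriers are described first. Afp encodes alpha-fetoprotein, the albumin relative of fetal plasma. Its intensity was 21.7 and 30.5 in P0, 64.0 and 64.4 on mesenchyme 1, and 415 and 432 on mesenchyme 2. The groups did not overlap, and their order was P0, mesenchyme 1, mesenchyme 2. Afp rose by 1.32 ± 0.16 (log2 difference ± SE, adjusted p = 0.00148) on mesenchyme 1 and by 4.04 ± 0.16 (16.5-fold, adjusted p = 7.11e-06) on mesenchyme 2. Mesenchyme 2 exceeded mesenchyme 1 by 2.72 ± 0.16 (adjusted p = 1.7e-05). Among all 11097 probes the rise of Afp on mesenchyme 2 had rank 18. The P0 level was low, and the size of these changes depends on it: with 16 added to every intensity the rise on mesenchyme 2 was 10.5-fold (6.23-fold with 50 added), and that on mesenchyme 1 was 0.94 and no longer reached 2-fold.

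Ttr encodes transthyretin, which carries thyroxine and, through a complex with RBP4, retinol. It stood at 502 and 551 in P0, 316 and 291 on mesenchyme 1, and 3157 and 3119 on mesenchyme 2. The order was mesenchyme 1, P0, mesenchyme 2, with no overlap between groups. Ttr was 5.97-fold higher on mesenchyme 2 than in P0 (2.58 ± 0.0977, adjusted p = 5.83e-06). On mesenchyme 1 it differed from P0 by -0.79 ± 0.0977 (adjusted p = 0.00158), which is short of 2-fold.

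Rbp4 encodes the retinol carrier that binds transthyretin in plasma. Its arrays read 375 and 364 in P0, 112 and 102 on mesenchyme 1, and 1728 and 1472 on mesenchyme 2. It had the widest separation of the carriers between the passaged cultures, with P0 lying between them. Rbp4 fell by 1.79 ± 0.113 on mesenchyme 1 (to 29.0% of P0, adjusted p = 0.000221) and rose by 2.11 ± 0.113 on mesenchyme 2 (adjusted p = 1.96e-05). The difference between the mesenchymes was 3.90 ± 0.113 (14.9-fold, adjusted p = 2.68e-06). Ttr and Rbp4, whose proteins travel together, therefore shared the order of the groups but not the size of the step on mesenchyme 1.

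Trf encodes transferrin, the iron carrier. Its intensity was 8.88 and 16.8 in P0, 19.8 and 14.9 on mesenchyme 1, and 71.5 and 60.3 on mesenchyme 2. P0 and mesenchyme 1 overlapped. Trf rose by 2.43 ± 0.296 on mesenchyme 2 against P0 (adjusted p = 0.000518), and its difference on mesenchyme 1 was 0.49 ± 0.296 (adjusted p = 0.214). With 16 added the rise was 2.86-fold in place of 5.37-fold, and with 50 added it was 1.85-fold and the call was lost.

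The apolipoproteins form the next set. Apoa1, the main protein of high-density lipoprotein, stood at 52.8 and 52.1 in P0, 23.8 and 32.2 on mesenchyme 1, and 731 and 626 on mesenchyme 2. No arrays of different groups overlapped. Apoa1 rose by 3.69 ± 0.158 on mesenchyme 2 (12.9-fold, adjusted p = 9.52e-06), and it was 24.4-fold higher there than on mesenchyme 1 (4.61 ± 0.158, adjusted p = 3.41e-06), rank 8 of all probes in that comparison. With 16 added the last value was 15.8-fold and with 50 added 9.32-fold, where the rise over P0 was 7.09-fold. Against P0, mesenchyme 1 differed by -0.92 ± 0.158 (adjusted p = 0.00467), just under 2-fold, and without mesenchyme 1 replicate 2 by -1.14, past it.

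Apoe encodes the ligand by which lipoprotein remnants are taken up into cells. It read 401 and 365 in P0, 288 and 316 on mesenchyme 1, and 1455 and 1459 on mesenchyme 2. The step on mesenchyme 2 was 3.81-fold (1.93 ± 0.0986, adjusted p = 1.65e-05). P0 and mesenchyme 1 lay close together, at a difference of -0.34 ± 0.0986 (adjusted p = 0.0283).

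Apom encodes a lipocalin of high-density lipoprotein that carries sphingosine-1-phosphate. Its values were 40.6 and 44.7 in P0, 29.0 and 22.7 on mesenchyme 1, and 237 and 284 on mesenchyme 2. All arrays of mesenchyme 2 lay above P0, and all arrays of mesenchyme 1 below it. Apom rose by 2.61 ± 0.152 on mesenchyme 2 (6.09-fold, adjusted p = 2.6e-05, and 3.34-fold with 50 added). On mesenchyme 1 it differed from P0 by -0.73 ± 0.152 (adjusted p = 0.00915).

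The remaining genes encode proteases of plasma cascades. F2 encodes prothrombin, the precursor of thrombin. It stood at 17.0 and 18.8 in P0, 27.9 and 16.9 on mesenchyme 1, and 77.5 and 67.4 on mesenchyme 2. Mesenchyme 1 spanned the P0 values, while mesenchyme 2 lay above both. F2 rose by 2.01 ± 0.225 on mesenchyme 2 (4.04-fold, adjusted p = 0.000349). This rise was 2.60-fold with 16 added and 1.80-fold, without a call, with 50 added. On mesenchyme 1 it differed from P0 by 0.28 ± 0.225 (adjusted p = 0.35), and without mesenchyme 1 replicate 1 by -0.085.

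C2 encodes the complement protein that supplies the protease of the classical and lectin C3 convertase. Its intensity was 126 and 142 in P0, 46.7 and 49.0 on mesenchyme 1, and 543 and 504 on mesenchyme 2. Like Rbp4, C2 had P0 in the middle and more than 2-fold on either side of it. It fell by 1.49 ± 0.103 on mesenchyme 1 (to 35.7% of P0, adjusted p = 0.000297) and rose by 1.97 ± 0.103 on mesenchyme 2 (3.90-fold, adjusted p = 1.85e-05). With 50 added the difference on mesenchyme 1 was -0.91, below the 2-fold limit.

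Cpn1 encodes the catalytic subunit of carboxypeptidase N, which trims kinins and complement fragments in plasma. It read 19.2 and 23.2 in P0, 15.2 and 16.1 on mesenchyme 1, and 18.2 and 17.5 on mesenchyme 2. All 6 values were low, and those of the passaged cultures lay just below P0. The difference from P0 was -0.24 ± 0.117 on mesenchyme 2 (adjusted p = 0.115, 95% interval -0.52 to 0.04) and -0.43 ± 0.117 on mesenchyme 1 (adjusted p = 0.0229, 95% interval -0.71 to -0.15). The interval on mesenchyme 2 covers array noise only and lies below the rises of the other 9 genes.

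**Figure D2:**
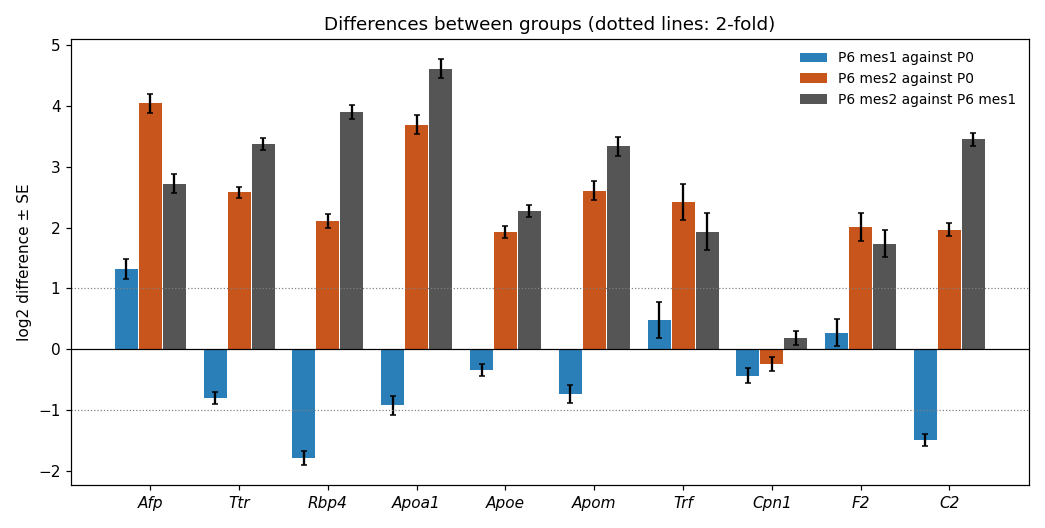
Log2 difference between groups for each plasma protein gene, from the limma fit, with SE as error bars and dotted lines at 2-fold. The bars of mesenchyme 2 against P0 reach 1.93 to 4.04 for all genes but Cpn1 (-0.24), while those of mesenchyme 1 against P0 run from -1.79 (Rbp4) to 1.32 (Afp).

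Read across the group, Afp was the only member that rose on mesenchyme 1. That call was lost with 16 or 50 added and when tested against a 2-fold change. Trf and F2 differed from P0 there by 0.49 ± 0.296 and 0.28 ± 0.225, with overlapping arrays. On mesenchyme 1, 7 of the 10 stood lower than P0 with arrays that did not overlap (38.2% of all probes). By the adjusted p alone, 7 members were lower, against 23.1% of all probes, and 2 of them, Rbp4 and C2, fell by 2-fold or more. On mesenchyme 2, 9 members had all arrays above those of P0, against 41.8% of all probes. Setting mesenchyme 2 against mesenchyme 1, 9 members were higher by 1.74 (F2) to 4.61 (Apoa1), against 13.5% of all probes, and Cpn1 differed by 0.19 ± 0.117 (adjusted p = 0.18, 95% interval -0.09 to 0.47). The comparisons with P0 share its arrays, so they are set side by side and no agreement between them is computed.

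How alike the members were over the 6 arrays was measured as the Euclidean distance between log2 values centred on each gene's mean. The closest pair was Ttr and Apom (distance 0.268), followed by Rbp4 and C2 (0.511) and by Trf and F2 (0.723). Cpn1 stood farthest from the rest, with F2 nearest at 2.38, and Afp came next, with Trf nearest at 1.68. These distances describe 6 arrays of 3 cultures.

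Outside the group, the genes closest to Afp by the same measure were Pdgfra, a growth factor receptor of mesenchyme and of primitive endoderm (0.487), Lama1, a laminin chain of basement membranes (0.582), and Sh3tc2 (0.639). All 3 also rose on mesenchyme 1, by 1.06 to 1.30, and on mesenchyme 2, by 3.50 to 3.75. Those closest to Ttr were the thrombin cofactor Thbd (0.225), the matrix protein gene Ccn1 (0.239) and the stress factor Atf3 (0.287). Those closest to Rbp4 were Eps8l2 (0.557), Rfx6, a transcription factor of the gut and islet endocrine lineage (0.58), and Fhl2 (0.696), each of which fell on mesenchyme 1, by 1.25 to 1.37, and rose on mesenchyme 2. For the other risen members the closest gene was Nxf7 for Apoa1 (0.292), Stx3 for Apoe (0.0751), Ifi30 for Apom (0.357), Slco3a1 for Trf (0.31), Pdia5 for F2 (0.224) and Eps8l2 for C2 (0.292).

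Upstream sequence was searched for 7 of the 10 members, with 10 start sites in all, from RefSeq on GRCm38.p6. Trf and C2 had no listed window, and Ttr was left out of this search. Shown are the 250 bases before the start for Afp and Apoa1, the members with the largest rises on mesenchyme 2, for Rbp4 at the second of its listed starts, and for Cpn1, which did not rise. Sequences run 5′ to 3′ on the gene's strand, and capitals mark matches to the motifs searched on both strands.
Afp, chr5:90490464-90490713, plus strand: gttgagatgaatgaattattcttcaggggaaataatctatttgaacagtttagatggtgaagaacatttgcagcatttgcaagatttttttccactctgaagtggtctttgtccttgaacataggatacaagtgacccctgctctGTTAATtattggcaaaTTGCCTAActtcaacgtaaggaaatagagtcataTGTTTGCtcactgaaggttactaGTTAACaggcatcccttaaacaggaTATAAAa
Apoa1, chr9:46228380-46228629, plus strand: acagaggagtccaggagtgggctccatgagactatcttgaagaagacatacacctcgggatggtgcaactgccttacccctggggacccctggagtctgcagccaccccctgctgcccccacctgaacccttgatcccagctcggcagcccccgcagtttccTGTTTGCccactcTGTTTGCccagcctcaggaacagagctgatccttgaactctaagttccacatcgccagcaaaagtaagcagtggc
Rbp4, chr19:38124812-38125061, minus strand: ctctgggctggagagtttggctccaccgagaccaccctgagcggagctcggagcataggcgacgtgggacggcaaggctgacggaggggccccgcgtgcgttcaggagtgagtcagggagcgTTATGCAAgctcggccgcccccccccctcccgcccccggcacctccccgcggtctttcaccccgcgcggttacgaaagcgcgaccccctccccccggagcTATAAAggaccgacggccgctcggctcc
Cpn1, chr19:43986521-43986770, minus strand: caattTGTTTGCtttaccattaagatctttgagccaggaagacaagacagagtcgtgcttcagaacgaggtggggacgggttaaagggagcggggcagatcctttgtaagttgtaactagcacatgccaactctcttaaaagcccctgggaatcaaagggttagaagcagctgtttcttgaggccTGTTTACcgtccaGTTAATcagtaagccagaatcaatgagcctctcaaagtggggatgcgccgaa
For HNF1 only a part of its binding site was searched, GTTAAT, found in 6.43% of all 32851 upstream windows of this length, and the variant GTTAAC, found in 2.56%. The HNF4 core was AAAGTCC (3.58%) and the FOXA motif TGTTTNC (17.8%). The C/EBP motif was TTGCNNAA (9.56%), the GATA motif AGATAA (9.99%) and the TATA box TATAAA (12.4%).

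Afp held 1 match each to both HNF1 forms, FOXA, C/EBP and the TATA letters, the last at 7 to 2 bases before the start. Apoa1 held 2 FOXA matches. The second Rbp4 start held a C/EBP and a TATA match, and its first start, like Apom, held FOXA once. Cpn1, whose level did not rise, held 2 FOXA matches and 1 HNF1 match. Of the Apoe windows, 1 held an HNF1 match and another held the TATA letters on both strands in overlapping positions, while the window of F2 held none of these letters. A match describes sequence only, and its part in these levels was not tested. Cpn1 read low on every array and no detection call was used, so it is not known whether its probe lies above background.

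Position on the chromosome was looked at next, by gene order on the same assembly. Of the 40 protein-coding genes that lie within 2 places of a member, 19 have a named probe. On mesenchyme 2 against P0, 2 of these rose (Dsg2 beside Ttr, by 1.73 ± 0.118, and Rab6b near Trf, by 2.91 ± 0.165) and 1 fell (Prrc2a near Apom, by 1.24 ± 0.0898). Over all probes, 9.66% rose and 8.65% fell there. The median of the 19 differences was 0.44, beside 0.007 over all probes. On mesenchyme 1, 1 fell (Lrp4 near F2, by 1.22 ± 0.109), where 2.75% of all probes fell. Against mesenchyme 1, 4 were higher on mesenchyme 2 (Rab6b, Lrp4, Dsg2 and Srprb), where 13.5% of all probes were.

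Directly adjacent genes with a probe number 7, Dsg2 among them. Apoc1, the apolipoprotein gene next to Apoe, stood at 476 and 511 in P0, 286 and 257 on mesenchyme 1, and 479 and 486 on mesenchyme 2. Its difference on mesenchyme 2 was -0.033 ± 0.0988 (adjusted p = 0.786), beside 1.93 for Apoe, while on mesenchyme 1 it was -0.86 ± 0.0988 (adjusted p = 0.00126). On mesenchyme 2 the genes on either side of Trf, Srprb and 1300017J02Rik, differed by 0.75 ± 0.134 (adjusted p = 0.00274) and 0.96 ± 0.16 (adjusted p = 0.00203), short of 2-fold. Bag6 next to Apom differed by -0.030 ± 0.0937, Dnmbp next to Cpn1 by -0.30 ± 0.0989 and Ckap5 next to F2 by -0.38 ± 0.108. Alb, Apoc3, Apoa4 and Cfb, also neighbours of members, have no named probe in the value table.

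Other genes linked to plasma proteins were taken from 5 lists of lipid carriers, other carriers, coagulation factors, complement and protease inhibitors. Not all of them encode secreted proteins: Mttp is microsomal, and Cd55, Cd59a and Thbd lie at the cell membrane. Of 117 genes listed, 21 have a named probe. On mesenchyme 2 against P0, 9 rose and 2 fell, with a median of 0.64, where 9.66% of all probes rose and 8.65% fell. Both directions thus occurred outside the 10 members.

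Among the lipid carriers, Mttp, the microsomal protein that loads lipid onto apolipoprotein B, rose from 17.1 and 16.9 in P0 to 69.8 and 76.5 (2.10 ± 0.0958, adjusted p = 1.2e-05). Clu, the apolipoprotein clusterin, rose by 1.64 ± 0.0886, and Apod, an apolipoprotein of the lipocalin family, fell by 1.57 ± 0.22. The other 3 of the 6 measured did not pass on mesenchyme 2. Among 4 other carriers, Selenop, the selenium carrier of plasma, rose from 42.0 and 38.1 to 311 and 349 (3.04 ± 0.105, adjusted p = 4.97e-06). Fetub, a fetuin, rose by 1.48 ± 0.293 from low levels, and Igfbp2, which binds insulin-like growth factors, fell by 3.02 ± 0.0915, from 1650 and 1608 to 195 and 209.

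All 3 coagulation genes with a probe rose on mesenchyme 2, where 9.66% of all probes did. Thbd, the endothelial thrombin cofactor, rose by 2.59 ± 0.103, Pros1, the anticoagulant protein S, by 2.29 ± 0.098, and Tfpi, the tissue factor pathway inhibitor, by 1.83 ± 0.0983. What they encode limits clotting, whereas prothrombin, from the member F2, promotes it. Of 6 complement genes, Cd55, a membrane regulator, rose by 1.98 ± 0.0943 and Serping1, the C1 inhibitor, by 1.20 ± 0.0892. Serping1 resembled Rbp4 and C2 in that it also fell on mesenchyme 1, by 1.19 ± 0.0892 (99.2 and 101 in P0, 44.0 and 43.9 on mesenchyme 1, 221 and 237 on mesenchyme 2). It was the 1 gene of the 21 that passed on mesenchyme 1 by its brightest probe, and Igfbp4 passed there by its dimmer probe alone (-1.35 beside -0.49). Of the protease inhibitors, Cst3 (cystatin C) differed by 0.90 ± 0.0946 and Serpinf1 by -0.26 ± 0.118 on mesenchyme 2, both short of the limit.

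**Figure D3:**
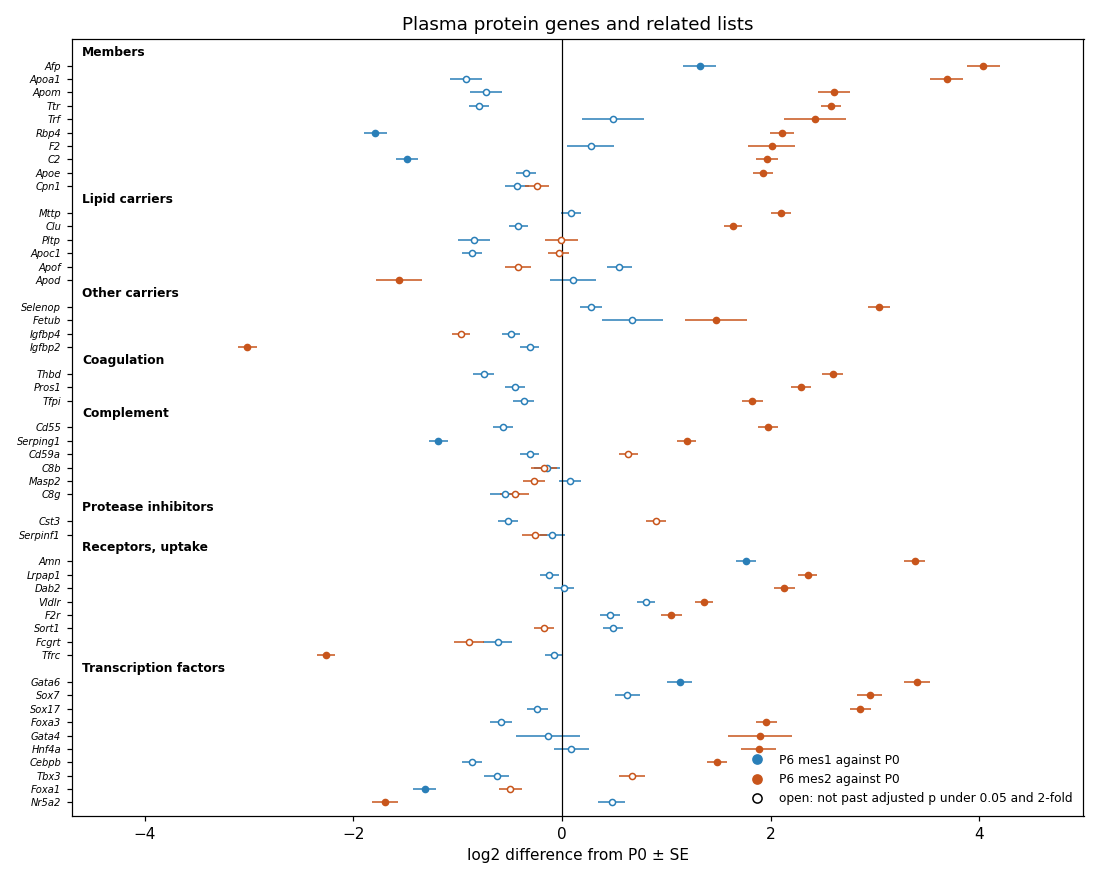
Log2 difference from P0 ± SE for the 10 members and for the measured genes of 7 related lists, on mesenchyme 1 (blue) and mesenchyme 2 (orange), with filled points for those past adjusted p under 0.05 and 2-fold. Most orange points of the members, coagulation, receptor and factor lists lie to the right of 0, and Igfbp2 (-3.02), Tfrc (-2.26), Nr5a2 (-1.70) and Apod (-1.57) are the filled ones to the left.

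Receptors and uptake proteins for plasma proteins were measured for 8 of 20 listed genes. Of these, 5 rose and 1 fell on mesenchyme 2, where 9.66% of all probes rose and 8.65% fell. Amn, a partner of the endocytic receptor cubilin, rose by 3.38 ± 0.1 on mesenchyme 2 and by 1.76 ± 0.1 on mesenchyme 1. Lrpap1, a chaperone of endocytic receptors, rose by 2.35 ± 0.0887 on mesenchyme 2, Dab2, an endocytic adaptor, by 2.13 ± 0.099, Vldlr, a lipoprotein receptor that binds apolipoprotein E, by 1.36 ± 0.0861, and the thrombin receptor gene F2r by 1.05 ± 0.0971. The transferrin receptor gene Tfrc moved opposite to its ligand's gene Trf. It read 3152 and 3128 in P0, 2975 and 2967 on mesenchyme 1, and 647 and 663 on mesenchyme 2, a fall of 2.26 ± 0.0851 on mesenchyme 2 (adjusted p = 5.65e-06). Lrp2 and Cubn have no named probe.

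Of 10 measured transcription factors of liver and visceral endoderm, 7 rose on mesenchyme 2, where 9.66% of all probes rose. Among these 7, Sox17, Gata4 and Gata6 are also on the endoderm list above, and Sox17 is the gene behind the sort. Gata6 rose by 3.40 ± 0.121, Sox7 by 2.95 ± 0.122, Sox17 by 2.86 ± 0.102 and Foxa3 by 1.96 ± 0.103. Hnf4a, a nuclear receptor that drives many of the plasma protein genes in liver, stood at 55.2 and 56.3 in P0, 50.2 and 70.1 on mesenchyme 1, and 221 and 192 on mesenchyme 2. It rose by 1.89 ± 0.166 on mesenchyme 2 (adjusted p = 0.000129) and differed by 0.09 ± 0.166 on mesenchyme 1 (adjusted p = 0.685). Nr5a2, an orphan nuclear receptor of liver and early embryo, fell by 1.70 ± 0.127 on mesenchyme 2. Of the 18 hepatocyte enzymes listed, Ass1, of the urea cycle, and Fah, of tyrosine breakdown, have a probe, and they differed from P0 by 0.18 ± 0.123 and -0.57 ± 0.102 on mesenchyme 2.

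Markers of cells other than endoderm were read as well. Of 18 fibroblast and mesenchyme markers, 8 have a probe, and their summed intensity was 4538 and 4915 in P0, 6345 and 6745 on mesenchyme 1, and 6737 and 6492 on mesenchyme 2. Most of that sum is the probe of Acta2, a smooth muscle actin (3058 and 3373 in P0, 4749 and 4576 on mesenchyme 2), and the median difference of the 8 on mesenchyme 2 was -0.041, with Vim at -0.98 and Col5a1 at -0.35. Pdgfra rose by 3.75 ± 0.101 on mesenchyme 2, where no other of the 8 passed, and Col5a1 rose by 1.02 ± 0.0899 on mesenchyme 1 along with Pdgfra. Col1a1, Col1a2 and Col3a1, also on the fibroblast and mesenchyme list, have no named probe. Of 15 macrophage markers, which bear on Apoe and C2 because macrophages make both proteins, Laptm5 alone has a probe. Laptm5 read 2763 and 2612 in P0, 2299 and 2190 on mesenchyme 1, and 2696 and 2977 on mesenchyme 2. It differed from P0 by 0.077 ± 0.0976 on mesenchyme 2. This 1 probe cannot show whether macrophage RNA was present. The summed intensity of 10 pluripotency markers was 25027 and 26221 in P0, 24142 and 22882 on mesenchyme 1, and 15889 and 15050 on mesenchyme 2. A large share of it is Dppa5a (12179 and 12441 in P0, 7992 and 7388 on mesenchyme 2), which differed by -0.68. Of the 10, 5 fell and 1 rose on mesenchyme 2, with a median of -0.92, where 8.65% of all probes fell and 9.66% rose. The one that rose, Klf4, did so by 1.66 ± 0.0996 at its brightest probe, where it fell by 1.35 ± 0.0996 on mesenchyme 1, and its other probes differed by -0.20 and -0.17 on mesenchyme 2. The part of any of these in the plasma protein values was not tested.

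**Figure D4:**
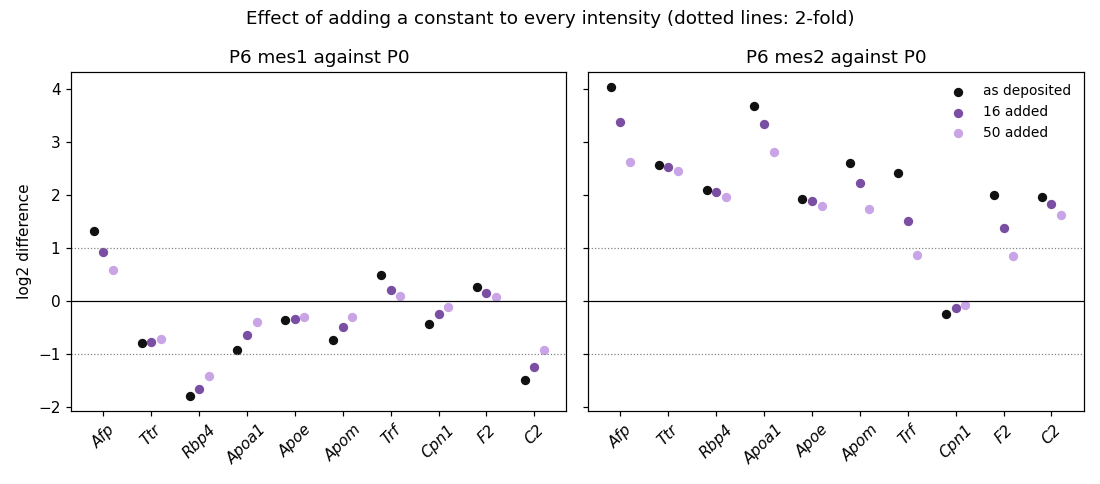
Log2 difference from P0 of each plasma protein gene as deposited and with 16 or 50 added to every intensity, on mesenchyme 1 (left) and mesenchyme 2 (right), with dotted lines at 2-fold. Ttr, Rbp4 and Apoe hardly move on mesenchyme 2, while Afp goes from 4.04 to 2.64 and Trf and F2 end below 2-fold at 0.88 and 0.85.

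Genes with low P0 levels thus carry the least certain sizes. Ttr, Rbp4, Apoe and C2 kept 1.64 to 2.47 on mesenchyme 2 with 50 added, and Apoa1 and Apom kept 2.83 and 1.74. No detection call was used, so it is not known which low intensities lie above background. This concerns Trf, F2 and Cpn1, Afp in P0, and Apoa1 and Apom on mesenchyme 1, which are the lower side of their 24.4-fold and 10.1-fold differences between the mesenchymes. It also concerns Thbd and Mttp in P0, and Gata4 in P0 and on mesenchyme 1. The median spread between duplicate arrays was 0.206 (log2 SD) in the dimmest quartile of probes and 0.0768 in the brightest.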

How the data were processed

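The labels' protocols describe RNA that was amplified, biotin-labelled and hybridised to Illumina bead arrays. The authors deposited normalized intensity values on a linear scale. The submitters' processing notes name BeadStudio, while the background correction, the normalization and the choice of probes are unstated. The value table holds 43.2% of the 25697 probes of the scanner table, whose 12 value columns match no sample label and were not used.

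Of the probes, 10475 carry 1 symbol in the platform annotation and 622 none, and all 10 members matched RefSeq (GRCm38.p6). Levels of different genes were not ranked, but sums over marker lists add probes of unlike brightness and are led by the brightest, and setting Sox17 against an array median carries the same limit. Log2 intensities of all 11097 probes entered 1 fit of the 6 arrays in limma 3.58.1 (R 4.3.3) with a mean for each group and moderated variances (3 residual and 3.70 prior degrees of freedom), without scaling, filter or added constant. Each comparison's two-sided p-values were adjusted over every probe (Benjamini-Hochberg). The fit was tested on simulated data. In the related lists the probe with the highest mean stands for a gene.

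Members, lists and rules were chosen with earlier results of these data known. Named are all members, up to 4 rises and 4 falls of each related list on mesenchyme 2 (all of 5 or fewer), a fixed set (Alb, Fgb, Serpina1a, Hnf4a, Tfrc, Lrp2, Cubn; 1 further gene is not reported here), cell type markers, the closest genes (3 for Afp, Ttr and Rbp4, 1 for the other called members) and neighbours by position. Cst3, Serpinf1, Ass1, Fah and the change of Serping1 on mesenchyme 1 were named after their values were seen. Alternatives were 16 or 50 added, median centring, quantile normalization, a mean intensity of at least 50, the brightest or the mean probe of a gene, a replicate block, the compared groups alone, other call rules and leaving out each array.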

Additional observations from a re-analysis of the deposited data

Results flagged for a closer look

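The change from P0 to passage 6 differed between the mesenchymes for 9 of the 10 genes, as tested by the comparison of mesenchyme 2 with mesenchyme 1, which is that difference. On the log2 scale it was 4.61 for Apoa1, 3.90 for Rbp4, 3.45 for C2, 3.37 for Ttr, 3.34 for Apom, 2.72 for Afp, 2.27 for Apoe, 1.94 for Trf and 1.74 for F2. The adjusted p from limma ran from 2.68e-06 to 0.00109 and measures the spread between technical duplicate arrays, not between cultures. By the same rule, 13.5% of all probes were higher on mesenchyme 2 than on mesenchyme 1. For Rbp4 and C2 both changes passed with opposite signs, and for Afp both passed with the same sign. For Ttr, Apoa1, Apoe, Apom, Trf and F2 the change on mesenchyme 1 did not pass. Groups of 2 arrays are too small for a check on single outlying arrays.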

How the results depend on the processing

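On mesenchyme 2 the 9 calls against P0 were kept under median centring, quantile normalization, other choices of probe, the compared groups alone and each left-out array. The exceptions were Trf and F2 with 50 added (0.88 and 0.85), and, with a mean intensity of at least 50, Trf, F2 and Cpn1 were not in the fit. Against mesenchyme 1 the same 2 genes lost their calls with 50 added (0.78 and 0.76) and when tested against a 2-fold change (adjusted p = 0.0611 and 0.0546). On mesenchyme 1 against P0, the members called were 3, and they were 1 (0 higher, 1 lower) with 50 added and 1 (0 higher, 1 lower) when tested against a 2-fold change, where Rbp4 remained and Afp and C2 did not, 8 (7 lower) with no fold limit, and 0 higher with 16 added, where Afp stood at 0.94. The difference of F2 there ran from -0.085 (without mesenchyme 1 replicate 1) to 0.638 with an array left out, and Apoa1 passed without replicate 2. All probes called numbered 668, 2032 and 2863 for mesenchyme 1, mesenchyme 2 and their comparison. With 16 added the first 2 were 318 and 1348. With 50 added they were 139, 871 and 1307, against a 2-fold change 105, 825 and 1453, and with no fold limit 5115, 6953 and 7612. For probes with a mean of at least 50, 381 were called on mesenchyme 1. With each array left out the counts ran from 703 to 721, 2047 to 2092 and 2882 to 2905. The replicate block changed no member's call and gave 668, 2031 and 2861, and deviations of same-numbered arrays correlated at -0.015 to 0.009 over probes, so the numbers are taken as names only.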

Other observations

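For 4 genes of the lists, probes of the same gene gave different calls. Igfbp4, another binding protein of insulin-like growth factors, differed from P0 on mesenchyme 2 by -0.97 at its brightest probe and by -1.67 at the other, and on mesenchyme 1 by -0.49 and -1.35. Tbx3 differed on mesenchyme 1 by -0.63 at its brightest probe and by -1.40 at the other. Sox2 differed there by 0.13 at its brightest probe and by 2.88 at the other. Klf4 differed on mesenchyme 2 by 1.66 at its brightest probe and by -0.20 and -0.17 at the others. These genes are named here after their values were seen. Each of the 10 members has a single probe, so this comparison cannot be made for them.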
